A study of Mus musculus with 10 samples.

Results

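The genes described here are antiviral effectors and nucleic acid sensors that interferons induce, outside the larger interferon-induced families such as Ifit, Oas and Gbp. A list of 43 gene symbols was matched to the array table, and 40 had a probe set row of their own among 18976 genes. Where a symbol had several rows, the row with the highest median expression was used. Dtx3l and Uba7 shared their rows with another gene, and Herc6 was found only under an older name, so these 3 genes are given apart.

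RNA was measured on microarrays in primary microglia, the resident macrophages of the brain. The cells were shaken off mixed glial cultures from newborn wildtype C57BL/6 mice and kept without serum for 24 h. By the labels, 5 control arrays were of cells that received no agent and 5 of cells given recombinant human TGFb1 at 5 ng/ml. The titles of both groups give a time of 24 h. Nothing in the labels says if replicate arrays stand for separate cultures, and microglia grown in culture from newborn mice differ in state from those in the adult brain. The names of the array columns matched no label, so no array value enters here, and no difference between TGFb1 and control is given for any gene. Each level below is the authors' median intensity over the table's arrays, which by its header is tied to neither group, on a linear scale after normalization and with no SD. In RNA from a whole culture, fewer cells of a type and less RNA per cell cannot be told apart. A probe set's intensity also depends on its probes, so the order of levels between genes is approximate, and genes next to each other in that order were not separated.

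Type I interferons act through the receptor Ifnar1 and Ifnar2 and the kinases Jak1 and Tyk2. The kinases activate a complex that includes Stat2 and Irf9 and binds the interferon-stimulated response element (ISRE) in target gene promoters. The products of such genes detect foreign or misplaced nucleic acid, cut or modify it, deplete nucleotides, tag proteins with the ubiquitin-like protein ISG15, or hold virus particles at the membrane. Microglia produce and answer type I interferon during infection and injury of the brain.

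The ISRE is the sequence feature that this group of genes is known for, so promoter windows of RefSeq (GRCm38.p6, 250 bases before to 50 bases from the transcription start) were searched for its core GAAANNGAA on both strands. Windows were found for 35 of the 43 genes, the other 8 being Mx1, Mx2, Usp18, Rtp4, Ifi27l2a, Dhx58, Zbp1 and Tor3a. The stretches below, from 7 genes with a match before the start, are shown as examples of how the core occurs in effectors and sensors, and the capitals mark the matches. Adar, Tdrd7 and Ifi44 also had a match before the start, at positions -249, -191 and -3, and are not printed. Each reads 5′ to 3′ on the strand of the gene, where a match on the other strand appears as its reverse complement.
Isg15, chr4:156200851-156200921, minus strand: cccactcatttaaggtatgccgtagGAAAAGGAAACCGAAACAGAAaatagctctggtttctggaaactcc
Ddx60, chr8:61928009-61928101, plus strand: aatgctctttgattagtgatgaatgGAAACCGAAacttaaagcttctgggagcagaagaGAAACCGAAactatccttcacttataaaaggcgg
Bst2, chr8:71537563-71537627, minus strand: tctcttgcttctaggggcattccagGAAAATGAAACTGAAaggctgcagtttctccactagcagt
Rsad2, chr12:26456538-26456596, minus strand: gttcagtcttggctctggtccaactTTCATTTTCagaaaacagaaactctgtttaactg
Ifih1, chr2:62646334-62646392, minus strand: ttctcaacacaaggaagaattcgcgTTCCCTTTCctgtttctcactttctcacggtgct
Lgals9, chr11:78984945-78985003, minus strand: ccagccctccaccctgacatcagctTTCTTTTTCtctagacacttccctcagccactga
Apobec3, chr15:79892244-79892302, plus strand: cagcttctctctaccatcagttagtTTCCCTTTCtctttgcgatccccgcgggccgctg

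The Isg15 stretch held 3 overlapping matches, the first beginning 78 bases before the start. Ddx60 held 2 separate copies of the same 9 letters, at positions -53 and -19 from the start. Bst2 held 2 overlapping matches, the first at 130 bases before the start, and the other stretches held 1 match each. The first bases past the Bst2 start were not found in a GENCODE transcript of that gene, so its positions rest on RefSeq alone.

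The 40 interferon-induced genes were expressed at moderate levels in these microglia. Their median level was 126, with quartiles of 66.4 and 188, against a median of 15.8 over all genes. The level of the median member was above that of 83.7% of genes. Of the 40, 28 were above the upper quartile of all genes, 73.4, while 11 lay between that value and the median gene, and Ifi44 alone was below the median gene. As a reference for genes not expected in microglia, 365 olfactory receptor genes had a median level of 3.84, and 95% of them were at or below 11.7, while the highest was at 166. All 40 interferon-induced genes were above 11.7, but so was the median gene at 15.8. Just past that value, at the 12.1 of the astrocyte marker Gfap, 44.6% of all genes lay below.

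**Figure D1:**
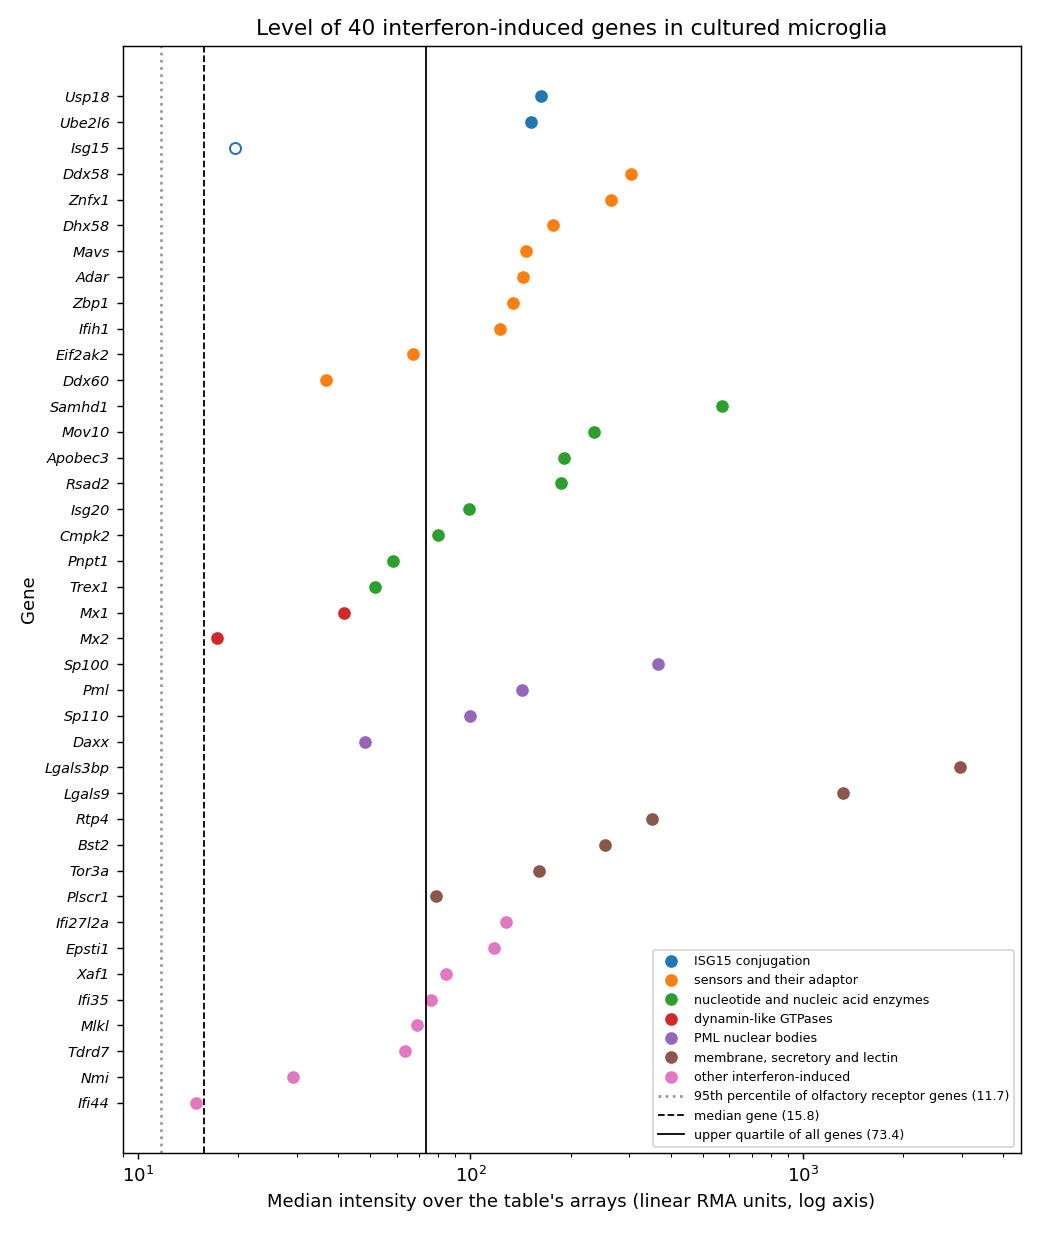
Median intensity of each of the 40 genes (x axis, linear RMA units on a log axis), grouped by role, as 1 point per gene with no error because the value is pooled over arrays. The dotted, dashed and solid lines stand at 11.7, 15.8 and 73.4, and the open point is Isg15, whose row stands apart in probe set order. Lgals3bp and Lgals9 lie far to the right, and Ifi44, Mx2 and Isg15 lie near the median gene.

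**Figure D2:**
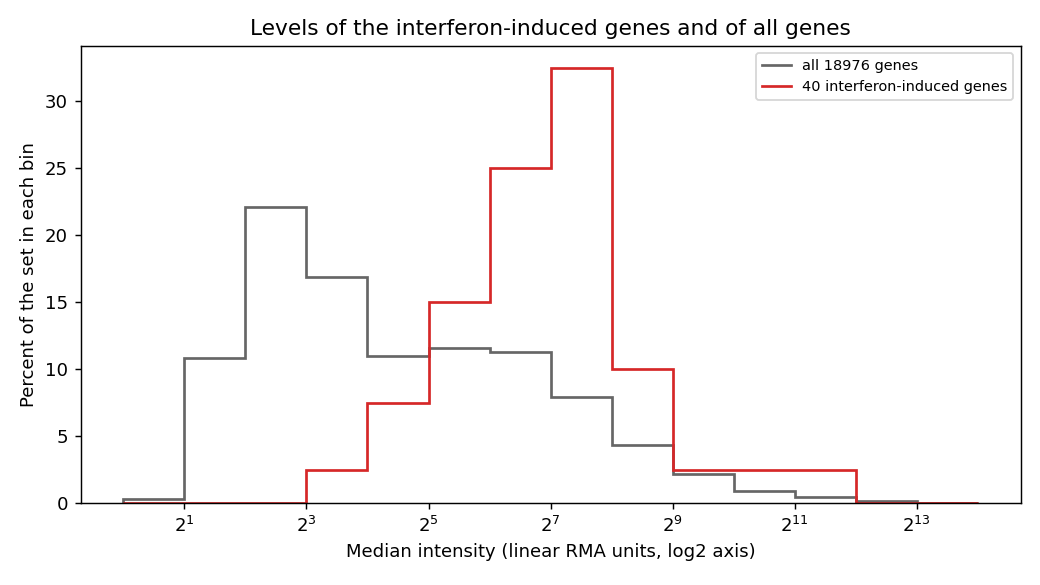
Percent of all 18976 genes (grey) and of the 40 interferon-induced genes (red) in bins of median intensity that double in width, on a log2 axis. The fullest bin of the interferon-induced genes runs from 128 to 256 and holds 32.5% of them, against 7.90% of all genes.

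Among the role groups, genes for proteins of the cell surface and the secretory pathway and for lectins had the highest median level. It was 303 over 6 genes, and all 6 were above the upper quartile of genes. Lgals3bp (probe set 10393573), a secreted glycoprotein that binds galectin-3, had the highest level of the list at 2952, rank 68 of all genes. Lgals9, which encodes the lectin galectin-9, followed at 1318 and rank 219. The microglia markers Csf1r at 1721 and Fcrls at 1136 had levels in the same range. Rtp4, a chaperone of membrane receptors, had a level of 351. Bst2, or tetherin, which holds budding virus particles at the cell surface, had a level of 254. Tor3a, an ATPase of the torsin family, was at 161, and Plscr1, a phospholipid scramblase, at 79.0.

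Genes for enzymes that act on nucleotides and nucleic acids had a median level of 143 over 8 genes, of which 6 were above the upper quartile. Samhd1, which breaks down deoxynucleotides and so limits reverse transcription, was highest at 570.3, above 96.7% of genes. Mov10, an RNA helicase, had a level of 235, and Apobec3, a cytidine deaminase that acts on retroviral DNA, of 191. Rsad2, or viperin, makes a nucleotide that ends viral RNA chains, and its level was 187. Cmpk2, a mitochondrial nucleotide kinase, lies next to Rsad2 in the genome and had a level of 79.9. These were the only members that neighboured each other among the protein-coding genes of GRCm38.p6. The exonuclease gene Isg20 was at 99.1, Pnpt1, a mitochondrial RNA phosphorylase, at 58.6, and Trex1, which degrades DNA in the cytosol, at 51.6.

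The genes for sensors and the proteins around them had a median of 144 over 9 genes, and 7 of the 9 were above the upper quartile. Ddx58, which encodes the RNA sensor RIG-I, had a level of 304. Its relatives Dhx58 (LGP2) and Ifih1 (MDA5, the sensor of long double-stranded RNA) were at 178 and 123. Mavs, the mitochondrial adaptor through which RIG-I and MDA5 signal, was at 147. Znfx1, a helicase-like sensor of double-stranded RNA, was at 264, while Ddx60, another helicase, had the lowest level of the sensors at 36.8. The row of Ddx60 listed no RefSeq transcript of that gene, and what its probes match was not tested. Adar, which edits adenosine in double-stranded RNA, was at 144, and Zbp1, which binds left-handed nucleic acid, at 134. Eif2ak2 is the kinase PKR, which halts translation on binding double-stranded RNA, and its level of 67.3 was below the upper quartile of genes.

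The ISG15 system was represented by 3 genes with rows of their own. Usp18, the protease that removes ISG15 and restrains interferon receptor signalling, had a level of 163. Ube2l6, the conjugating enzyme, was close to it at 152. Isg15 itself, the modifier that these enzymes act on, was at 19.6, above only 53.7% of genes. The activating enzyme gene Uba7 shared a row with Cdh29 at a level of 61.4. The row named Herc5 had a level of 71.0, and RefSeq lists Herc5 as a synonym of Herc6, the ISG15 ligase of the mouse, and gives its transcript as that of Herc6.

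The row behind the low level of Isg15 stood apart from the others in probe set order. Probe set numbers follow the chromosomes: of 16420 genes with a RefSeq chromosome, only 1.71% had a row whose 15 neighbours on each side in number order lay most often on another chromosome. Among the rows used for the 40 members, that of Isg15 (probe set 10451287) was the only such case. RefSeq places Isg15 on chromosome 4, while 23 of the 24 placed rows around its probe set lay on chromosome 17. The row lists a RefSeq transcript of Isg15, and what its probes match was not tested. Without Isg15 the median level of the remaining 39 members was 128.

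Sp110, Apobec3 and Plscr1 were the 3 members with a second row of their own. That of Plscr1 was at 42.3 beside its 79.0, and 20 of the 22 placed rows around it lay on chromosome 1 rather than on its own chromosome 9. The rows of Sp110 carried the same level, 99.4, and each listed 1 RefSeq transcript of that gene, so they are counted here as 1 measurement. Around the second of them, 6 of the 13 placed rows lay on chromosome 8, the most on any chromosome, while RefSeq places Sp110 on chromosome 1. Apobec3 had a second row at 77.4 beside its 191. Znfx1 shared another row with 1500012F01Rik at 191, and Trex1 shared one with Atrip at 20.2. Dtx3l, a ubiquitin ligase that works with Parp9, had only rows shared with Parp9, at 106 and 230.

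Among genes for proteins of PML nuclear bodies, which bind chromatin and restrict DNA viruses, Sp100 had the highest level at 367. Pml, which builds these bodies, was at 142, Sp110 at 99.4 and Daxx, a histone chaperone, at 48.1. The dynamin-like GTPases Mx1 and Mx2, which block viral replication complexes, had low levels of 41.7 and 17.3. Most inbred laboratory mice carry a defective Mx1 allele. Both GTPases were above the median gene and below the upper quartile.

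The other interferon-induced genes had a median level of 72.5 over 8 genes, and 4 of them were above the upper quartile. Ifi27l2a, of a family of mitochondrial membrane proteins, was highest at 128. Epsti1 was at 118 and Xaf1, which antagonizes an inhibitor of caspases, at 84.5. Ifi35 and Nmi encode proteins that bind each other, and their levels were 76.0 and 29.3. Mlkl, the membrane-breaking effector of necroptosis, was at 69.1 and Tdrd7, which counters autophagy that viruses use, at 63.5. Ifi44 had the lowest level of all members, 14.98, and 49.1% of genes were below it.

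Genes of the interferon pathway itself were mostly well expressed, with 17 of 21 measured genes above the upper quartile and a median of 191. The receptor genes Ifnar1 and Ifnar2 had levels of 545 and 682, and the kinase genes Jak1 and Tyk2 of 564 and 74.0. Stat2 and Irf9, whose products are in the complex that binds the ISRE, were at 188 and 223. Irf7, which drives interferon genes, was at 191. The interferon gene Ifnb1 was at 6.00 and the inhibitor gene Socs1 at 10.7, both below 11.7, the 95th percentile of the olfactory receptor genes. Both were above the upper quartile of the olfactory receptor genes, 5.42. Tmem173, or STING, which receives the signal of cytosolic DNA, was at 322, and the endosomal RNA receptor genes Tlr7 and Tlr3 at 527 and 44.8. Ticam1, the adaptor of Tlr3, was at 63.4, and like Tlr3 it was below the upper quartile of genes.

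**Figure D3:**
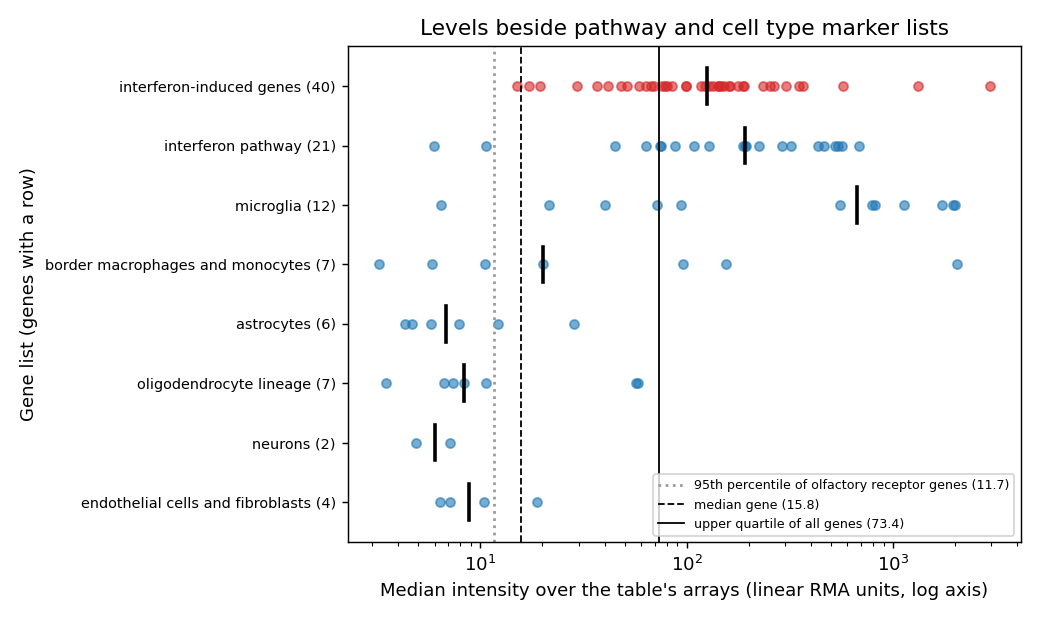
Median intensity (x axis, linear RMA units on a log axis) of the interferon-induced genes (red) beside the interferon pathway list and 6 lists of cell type markers (blue), 1 point per gene, with the median of each list as a bar and the number of genes in brackets. The microglia markers have a median of 670.5, and the astrocyte, oligodendrocyte and neuron markers lie mostly below 15.8.

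The labelled cell type was checked against its markers. Of 12 microglia markers 8 were above the upper quartile of genes, with Trem2 at 1956 and Csf1r at 1721, whereas Sall1 was at 21.6 and Siglech at 6.48. Astrocyte markers had levels between 4.31 and 28.6, with Gfap at 12.1, and 2 neuronal markers were at 4.90 and 7.09. Oligodendrocyte markers had a median of 8.31, with Mbp and Cspg4 highest at 56.7 and 58.0. Of 7 border macrophage and monocyte markers, Ms4a7 was at 2052, Mrc1 at 156 and Pf4 at 96.5, and the other 4 ran from 3.23 to 20.2. How much of the interferon-induced RNA came from such cells was not tested.

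The table's own annotation places these genes together. The biological process "response to virus" was given to 10 of 37 annotated members, or 27.0%, and to 0.265% of 17360 annotated genes. "Innate immune response" was given to 8 of the 37, or 21.6%, and to 0.553% of annotated genes. All 3 genes of the table that carried the process "ISG15-protein conjugation" were members, Isg15, Ube2l6 and Usp18. In the pathway annotation, 5 of 12 annotated members belonged to RIG-I-like receptor signalling, namely Ddx58, Dhx58, Ifih1, Isg15 and Mavs. Of all 4576 genes with a pathway, 1.40% belonged to it. Cytosolic DNA sensing, given to 1.11% of genes with a pathway, held Adar, Trex1 and Zbp1 and shared Ddx58 and Mavs with RIG-I-like receptor signalling. The list was drawn up for this function, so these shares describe the list. The root term alone was carried by 10 members, among them Rtp4, Ifi44, Nmi and Znfx1. With or without other terms, it was given to 29.7% of annotated members and to 51.0% of annotated genes.

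The ISRE core occurred in the promoter windows of 12 of the 35 genes, or 34.3%, and in 9.76% of 27025 genes searched in the same way. Counted by window, it was present in 24.5% of 49 windows of these genes and in 8.56% of all 32851. Besides the 7 genes printed above, the matches were in Adar, Ddx58, Eif2ak2, Ifi44 and Tdrd7. In Ddx58 the match began 3 bases past the start, and in Eif2ak2 2 overlapping matches lay 18 and 24 bases past it. Lgals9, Ifih1 and Adar each had a further match past the start, at 16, 32 and 33 bases. The gamma-activated site TTCNNNGAA, a motif of the response to interferon gamma, reads the same on both strands. It was in 7 of the 35 genes, or 20.0%, and in 9.55% of all genes. With 35 genes the exact 95% intervals were wide, 8.44% to 36.9% for this site and 19.1% to 52.2% for the ISRE core. The genes were chosen for their function, so neither interval tests a difference from all genes. Counted by window, the site was in 14.3% of the windows of these genes and in 8.30% of all windows. Isg20, Ifi35, Samhd1 and Plscr1 had this motif without the ISRE core. Adar, Bst2 and Eif2ak2 had both, and in Bst2 the motifs overlapped. A match is a stretch of letters and shows no binding.

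**Figure D4:**
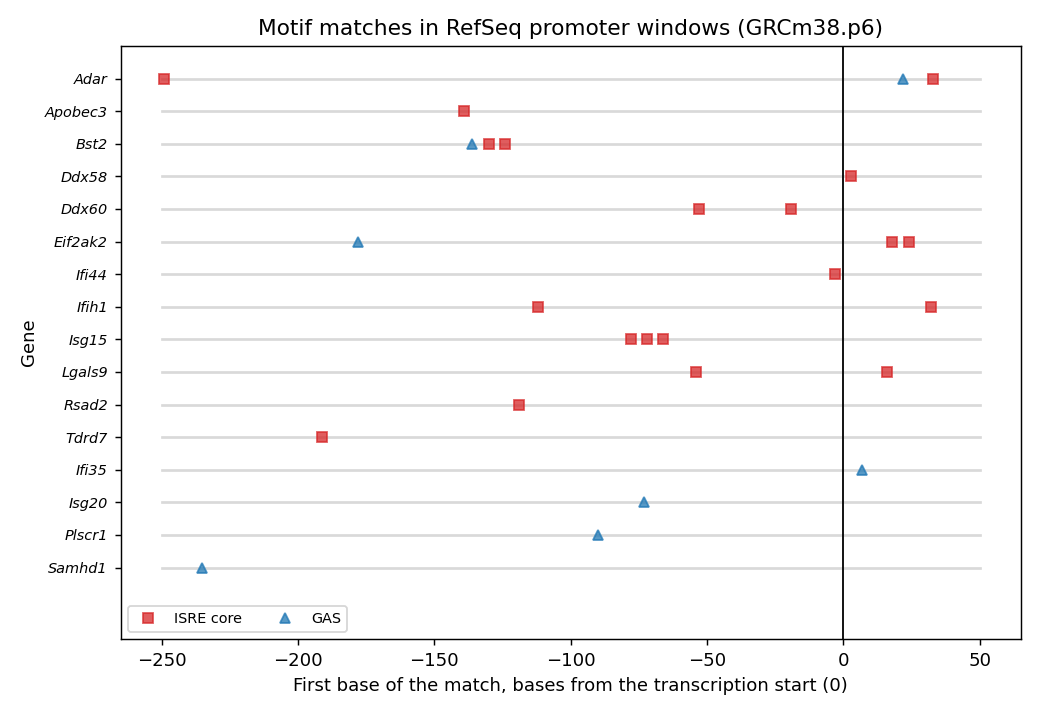
Position of each match to the ISRE core (red squares) and the gamma-activated site (blue triangles) in bases from the transcription start (x axis, 0 at the start) for the 16 genes with a match, each grey line being 1 gene's window of 250 bases before to 50 bases from the start. The 3 matches of Isg15 and the 2 of Ddx60 lie within 78 bases before the start.

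Genes with and without the ISRE core both spanned low and high levels. The 12 genes with the ISRE core and a row of their own had a median level of 134, from 14.98 for Ifi44 to 1318 for Lgals9. The 20 genes without it had a median of 99.3, from 29.3 for Nmi to 2952 for Lgals3bp. The ranges overlapped over most of their length. For the looser core AANNGAAA the order was reversed, with medians of 108 for 22 genes with it and 113 for 10 without. The order was also reversed for the gamma-activated site, at 99.1 for 7 genes with it and 118 for 25 without. No test was made of any of these differences.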

How the data were processed

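Biotin-labelled cDNA from 10 samples was hybridised to Affymetrix whole transcript arrays. RMA (background correction, normalization and probe summary) is credited to the notes of the submitters. Its version and the genome build were not given in the sources used here. The paper names an array model in a passage on sorted microglia and none for these cultured cells. The authors deposited a table of 28361 probe set rows with a median intensity per row over the table's arrays, and this column alone was used. The table also holds the effect, p-value and FDR of the authors' paired comparison, which were not used, and 10 columns of array values whose names match no label, which were used in no step. Differences between groups are therefore not analysed here, and depth does not apply to arrays.

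Rows with 1 symbol (21041) were reduced to 18976 genes by the highest median intensity. A further 2247 rows name several genes, 5061 none and 12 a date. Every member was described, grouped by role, with a fixed list of 22 pathway genes and 6 lists of cell type markers. The members and lists were chosen with earlier results of these data known, and the olfactory receptor reference after the levels were seen. Accessions, neighbours and chromosomes came from RefSeq GRCm38.p6, and a RefSeq transcript of the member was listed in the rows of 39 of 40 members, all but Ddx60. Promoter windows were RefSeq's, and the first bases after the start were found in a GENCODE transcript for 32 of 35 genes, all but Bst2, Herc6 and Mlkl. For 20 of the 35, the start of a window was the start of the gene in RefSeq. The motif search was tested on simulated data. Python 3.11.15, pandas 2.3.3, numpy 2.4.6 and matplotlib 3.10.9 were used. Values of some single genes of the pathway and marker lists are not reported here.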

Additional observations from a re-analysis of the deposited data

How the results depend on the processing

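No paired analysis was possible because the array columns carry no replicate number or group of the labels. For the same reason the planned limma fits with and without the replicate number, the leave-one-out fits, the stricter threshold, the fit on every row, the expression filter and the centring were not run. The median level of the members was 126 with the highest row per symbol and unchanged with the mean over a symbol's rows. Only 3 members had a second row, so this alternative could move the median little. It was 123 with the 3 genes reported apart and 128 without Isg15, both chosen after seeing the data. The median member was above 83.7% of genes and above 84.6% of all rows. With the looser core AANNGAAA the share of members with a match rose from 34.3% to 68.6%, and that of all genes from 9.76% to 26.7%, since the looser core fixes fewer letters. Levels at or below 11.7 lie in the range of most olfactory receptor genes, and no error can be given for any level.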
